A study of Mus musculus with 2 samples.

Results

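Transit-amplifying (TA) cells were the cells that the deposited annotation names TA in the small intestinal crypts of 2 mice lacking miR-375. They numbered 643 of the 3275 annotated cells, and 3207 of the annotated cells were epithelial. Mouse 1 gave 320 TA cells of 2082, or 15.4% with an exact (Clopper-Pearson) 95% interval of 13.8% to 17.0%. Mouse 2 gave 323 of 1193, or 27.1% with an interval of 24.6% to 29.7%. The 2 shares lay outside each other's interval, although the 2 numbers of TA cells were nearly equal. With at most 10% mitochondrial UMIs per cell the shares were 20.5% (208 of 1015 cells) and 27.7% (298 of 1074 cells).

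Both animals were males of 12 months, of the strain labelled C57BL6/2J, with a whole body miR-375 knockout (375KO) made with CRISPR/Cas9. The study's methods instead describe the knockout mice as B6 albino, with FVB hybrid founders backcrossed to that strain. The knockout was not restricted to a tissue or cell type, and every cell described here carried it. Crypts were isolated from the jejunum and dissociated with dispase, and single-cell RNA-seq libraries were made with 10x Genomics 3′ v2 chemistry, 1 library per mouse. No wild-type cells entered any comparison, so all values compare cell types within knockout animals. The matrices held 27998 genes but none for the miR-375 locus, so the knockout itself could not be checked in these counts.

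The library totals were 64305085 and 23675011 unique molecular identifiers (UMIs), of which 44017234 and 22163354 lay in annotated cells, and the libraries shared 0 cell barcodes. TA cells had a median of 20810.5 and 16963 UMIs and 4378 and 3711 detected genes in mice 1 and 2, against 12282 and 12556 UMIs in stem cells. Their median mitochondrial share was 9.02 and 5.52%, so mouse 1 was the higher in depth and in mitochondrial share. All pairs of values below give mouse 1 first and mouse 2 second. Levels are CPM, the UMIs of a gene over all cells of a type in a mouse, scaled to the same total for every type and mouse, with 1 value per mouse (n = 2 mice). They compare cell types, not genes of different length.

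TA cells are the short-lived daughters of crypt base stem cells. They divide several times while they move up the crypt, and they then leave the cell cycle and become enterocytes or, after committing earlier, cells of the secretory lineage. A dividing cell copies its DNA in S phase with licensing factors, polymerases and a supply of nucleotides, and separates the copies in mitosis with kinetochores, spindle motors and mitotic kinases. Transcripts of the 2 steps peak at different times: many replication genes follow E2F factors late in G1, and many mitotic genes follow the MuvB complex with B-Myb and FoxM1 in G2.

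The 4 markers of TA cells stood highest in the cells so named, as a description, since the classes rest on the same counts. Top2a, the topoisomerase that untangles replicated DNA, stood at 406 and 310.2 CPM in TA cells, against 49.3 and 28.7 in stem cells and 2.01 and 4.86 in enterocytes. Birc5, the survivin subunit of the chromosomal passenger complex, stood at 397 and 364 CPM, Mki67, which coats mitotic chromosomes, at 327 and 199 CPM, and Cenpa, the histone variant that marks centromeres, at 239 and 276 CPM. All 4 were highest in TA cells among the 9 epithelial types in both mice. The exact Poisson 95% interval of the lowest of these levels, Mki67 in mouse 2, was 187 to 211 CPM. These intervals, like those of shares, cover counting error only.

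Goblet progenitors came next for Top2a, Mki67 and Birc5 in both mice, and for Cenpa in mouse 1. They had 297 and 244 CPM of Top2a and 243 and 188 CPM of Mki67, and the summed level of the 4 markers was 1003 and 852 CPM, against 1368 and 1148 in TA cells and 273 and 155 in stem cells. The authors' doublet caller gave goblet progenitors a median score of 0.201 and 0.0905, and TA cells 0.00877 and 0.00181; the part of doublets in these levels was not tested.

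**Figure D1:**
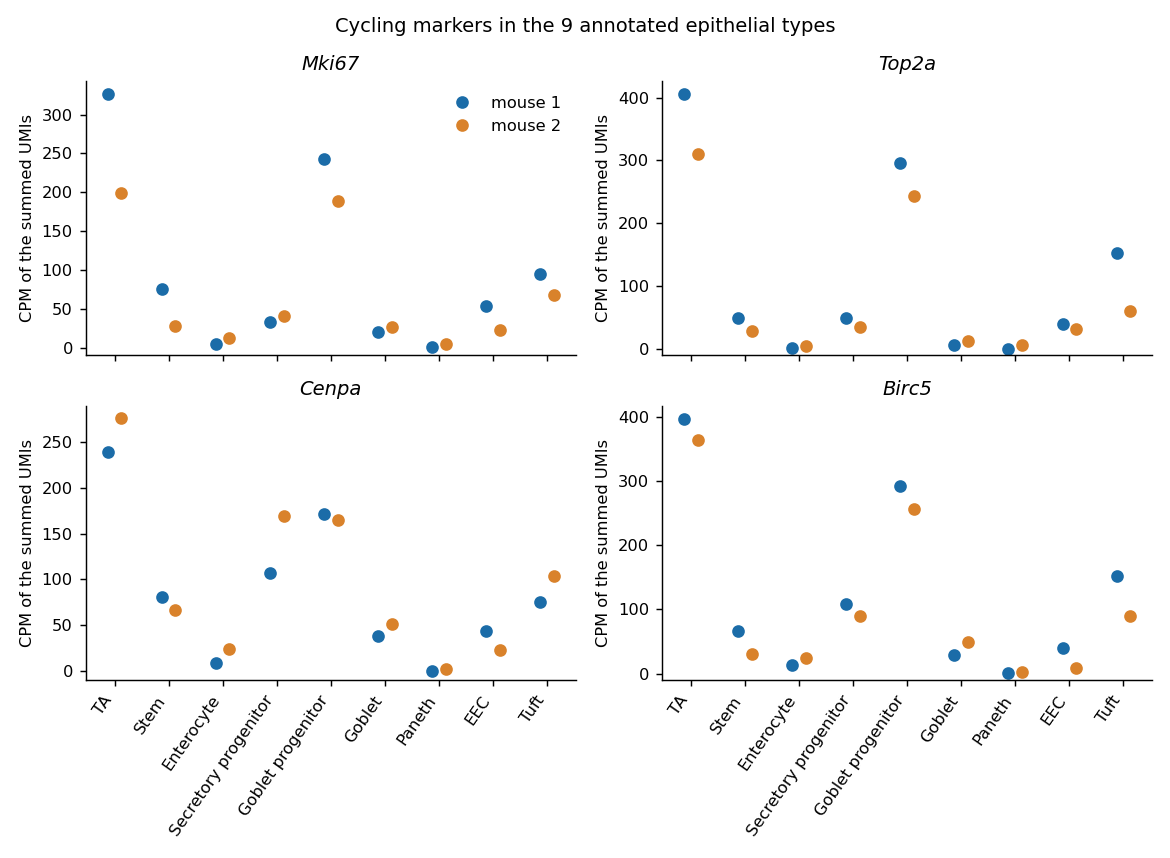
Levels of Mki67, Top2a, Cenpa and Birc5 in CPM of the summed UMIs (y axis) in the 9 annotated epithelial types (x axis), with 1 point per mouse. For every marker both TA points are the highest of their mouse, and the goblet progenitors come next except for Cenpa in mouse 2, where secretory progenitors do.

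Shares of cells with at least 1 UMI depend on depth, so every cell was thinned to 5000 UMIs before they were compared, which left out 0 TA cells, 3 stem cells and at most 1 cell of any other epithelial type in a mouse. Mki67 was then found in 70.6% and 59.1% of TA cells, Top2a in 68.8% and 65.6%, Cenpa in 65.9% and 62.5% and Birc5 in 81.2% and 77.7%. Before thinning the same shares were 93.8% and 90.7%, 87.2% and 84.5%, 87.8% and 85.4% and 97.2% and 94.1%. At least 1 of the 4 markers was found in 97.8% and 98.1% of thinned TA cells, leaving 7 and 6 TA cells with none. In stem cells the share with any of the 4 was 48.5% and 35.0%. In Paneth cells, which have left the cell cycle, it was 0% and 7.41%, in enteroendocrine cells 20.8% and 20% and in tuft cells 33.3% and 36.8%. Among progenitors the share was higher, at 85.8% and 88.1% in goblet progenitors and 38.7% and 57.9% in secretory progenitors. The median depths before thinning were 44683 and 80817 UMIs in Paneth, 7388 and 9374 in enteroendocrine and 8618 and 13010.5 in tuft cells. In Paneth cells the 6 Paneth markers alone made up 500764 and 440505 CPM. A thinned Paneth cell therefore kept fewer UMIs for all other genes, and its share is not at equal depth for the 4 markers.

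Genes that peak together in the cell cycle often share promoter letters, and the promoters of the 4 markers, of Cdk1, the kinase that drives entry into mitosis, and of Plk1, a mitotic kinase, are shown for that reason. Each runs from 250 bases before to 50 bases after the RefSeq gene start on GRCm38.p6, the same assembly as mm10, and reads 5′ to 3′ along the gene. Capitals mark the cell cycle homology region (CHR, TTTGAA), which the MuvB complex binds, the E2F site (TTTGGCGC or TTTCGCGC) and the CCAAT box, which NF-Y binds, each searched on both strands.
Mki67: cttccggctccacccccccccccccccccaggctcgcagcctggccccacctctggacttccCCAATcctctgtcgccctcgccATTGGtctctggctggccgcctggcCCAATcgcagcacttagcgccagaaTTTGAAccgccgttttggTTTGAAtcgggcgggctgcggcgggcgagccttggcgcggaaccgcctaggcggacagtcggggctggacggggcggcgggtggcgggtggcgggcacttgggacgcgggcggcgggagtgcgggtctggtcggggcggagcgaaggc
Top2a: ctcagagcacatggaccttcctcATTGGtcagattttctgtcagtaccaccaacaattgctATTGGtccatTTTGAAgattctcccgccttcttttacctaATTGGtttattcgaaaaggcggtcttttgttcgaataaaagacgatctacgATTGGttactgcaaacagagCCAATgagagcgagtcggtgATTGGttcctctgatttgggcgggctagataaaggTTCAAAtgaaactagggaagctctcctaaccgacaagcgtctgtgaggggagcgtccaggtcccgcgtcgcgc
Cenpa: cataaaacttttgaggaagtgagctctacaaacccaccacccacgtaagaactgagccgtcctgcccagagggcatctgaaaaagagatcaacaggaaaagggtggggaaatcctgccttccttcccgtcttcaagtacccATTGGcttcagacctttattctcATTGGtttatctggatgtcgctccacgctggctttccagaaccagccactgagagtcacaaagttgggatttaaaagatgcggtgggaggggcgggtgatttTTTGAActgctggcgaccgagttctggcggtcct
Birc5: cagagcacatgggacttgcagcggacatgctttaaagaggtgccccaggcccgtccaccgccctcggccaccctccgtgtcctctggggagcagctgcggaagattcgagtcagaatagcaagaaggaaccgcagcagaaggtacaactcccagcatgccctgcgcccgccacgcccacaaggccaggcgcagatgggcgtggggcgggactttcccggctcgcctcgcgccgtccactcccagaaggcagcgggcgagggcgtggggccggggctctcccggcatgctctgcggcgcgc
Cdk1: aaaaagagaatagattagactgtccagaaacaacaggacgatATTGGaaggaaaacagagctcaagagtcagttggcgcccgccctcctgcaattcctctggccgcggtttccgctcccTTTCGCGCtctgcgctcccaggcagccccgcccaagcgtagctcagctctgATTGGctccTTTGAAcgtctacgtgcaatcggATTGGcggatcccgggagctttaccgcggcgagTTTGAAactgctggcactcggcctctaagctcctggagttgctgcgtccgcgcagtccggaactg
Plk1: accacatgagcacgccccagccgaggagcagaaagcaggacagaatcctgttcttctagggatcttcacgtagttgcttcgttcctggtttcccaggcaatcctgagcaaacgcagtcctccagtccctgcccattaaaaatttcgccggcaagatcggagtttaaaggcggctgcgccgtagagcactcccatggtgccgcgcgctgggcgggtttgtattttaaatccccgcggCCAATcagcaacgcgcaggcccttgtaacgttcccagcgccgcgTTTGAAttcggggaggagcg

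These windows lie at chr7:135716330-135716629 on the minus strand for Mki67, chr11:99024140-99024439 on the minus strand for Top2a and chr5:30666636-30666935 on the plus strand for Cenpa. Those of Birc5, Cdk1 and Plk1 lie at chr11:117848987-117849286 on the plus strand, chr10:69352863-69353162 on the minus strand and chr7:122159185-122159484 on the plus strand. Mki67 held the CHR letters 116 and 98 bases before its start and 3 CCAAT boxes further upstream. Top2a held the CHR letters 179 and, on the other strand, 23 bases before its start, with 6 CCAAT boxes. Cdk1 held CHR letters 71 and 15 bases before its start, an E2F site 131 bases before it and 3 CCAAT boxes. Cenpa and Plk1 held their CHR letters 16 and 30 bases after the start. In the Birc5 window none of the searched letters was found.

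Over all genes tested, 12.1% of 11277 promoters held the CHR letters, 1.65% an E2F site and 38% a CCAAT box. In the list of spindle and cytokinesis genes 25 of 31 promoters (80.6%) held the CHR letters and 64.5% a CCAAT box. In that of mitotic kinases and the checkpoint 12 of 22 promoters (54.5%) held the CHR letters and 81.8% a CCAAT box. The centromere list had the CHR letters in 12 of 31 promoters (38.7%). By contrast, the nucleotide synthesis list had them in 7.41% of promoters and the ribosome biogenesis list in 10.7%, and the enterocyte maturation list had them in 23.1% and a CCAAT box in 19.2%. Only 37 of the 48 licensing and replication genes had a promoter in the table, under the 80% required, so the check was void for that list. A match describes letters in these windows, not a bound site or a cause.

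**Figure D2:**
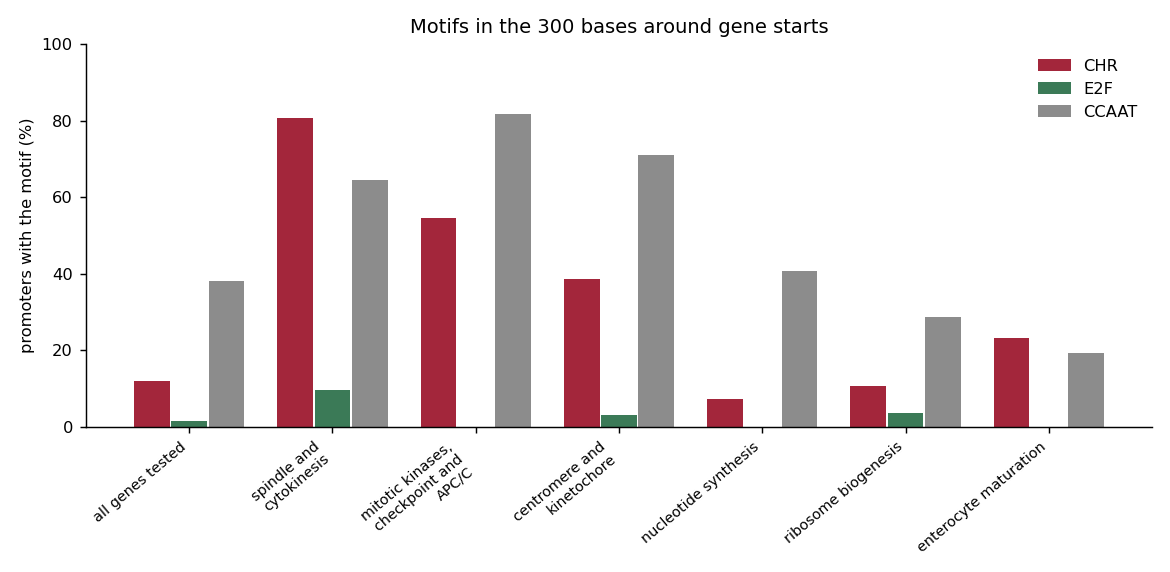
Share of promoters in percent (y axis) that hold the CHR letters, an E2F site or a CCAAT box on either strand, for all genes tested and for 6 gene lists (x axis). The CHR bars of the 3 mitotic lists reach 80.6%, 54.5% and 38.7%, against 12.1% over all genes tested.

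Genes of mitosis were among those that differed most between TA cells and the other epithelial types. UMIs were summed per mouse and type, and 11013 genes were tested with edgeR's quasi-likelihood test (two-sided, p-values adjusted by Benjamini and Hochberg) with a term for the mouse, for TA cells against the mean of the other 8 types. At an adjusted p under 0.05, 2112 genes (19.2%) were higher and 1497 (13.6%) lower in TA cells, and the median log2 fold change over all genes was 0.05. The authors named the classes from the same counts, and only 2 mice enter, so these calls describe how far the class stands apart in both animals and are no independent test of it. Of the 11013 genes 562 (5.1%) were highest in TA cells in both mice.

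All 30 spindle and cytokinesis genes were higher in TA cells than in the other types, with a median log2 fold change of 2.68, and 24 of them were highest in TA cells in both mice. The list summed to 3724 and 2954 CPM in TA cells, 2841 and 2377 in goblet progenitors and 3015 and 2113 in tuft cells. Its level was thus not particular to TA cells. Nusap1, which bundles spindle microtubules, stood at 95.5 and 71.5 CPM against 3.92 and 3.74 in stem cells and 0.155 and 2.24 in enterocytes. Its log2 difference of 4.54 ± 0.41 (SE, edgeR adjusted p = 1.71e-05) was the highest that the rule for naming genes picked. Prc1, which crosslinks the central spindle, stood at 131 and 70.7 CPM against 8.97 and 2.49 in stem cells. Anln, a scaffold of the cleavage furrow, stood at 40.6 and 31.8 CPM against 2.24 and 0.623 in stem cells. Kif4, a motor of the chromosome arms, stood at 40.3 and 28.9 CPM against 9.53 and 4.99. The TA and stem cell values of the 2 mice did not overlap in these 4 genes. They were picked for large folds, so this adds no support.

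All 24 mitotic kinase, checkpoint and anaphase-promoting complex genes were higher as well, with a median of 2.75, and 20 of them were highest in TA cells in both mice. The list summed to 3054 and 2677 CPM in TA cells and 2269 and 1867 in goblet progenitors. Aurkb, the kinase of the chromosomal passenger complex, stood at 71.4 and 53.9 CPM against 3.36 and 1.87 in stem cells and 0.155 and 0.561 in enterocytes, a log2 difference of 3.99 ± 0.21 (SE, edgeR adjusted p = 5.85e-15) from the other types. Plk1 stood at 77.6 and 69.6 CPM against 6.73 and 3.74 in stem cells, with a log2 difference of 3.35 ± 0.20 (SE, edgeR adjusted p = 1.14e-13). Ube2c, the ubiquitin-conjugating enzyme of the anaphase-promoting complex, stood at 581 and 397 CPM against 59.4 and 43.0 in stem cells. Cdc20, its activator at anaphase, stood at 169 and 101 CPM against 44.3 and 28.1, and in mouse 2 secretory progenitors were slightly higher than TA cells.

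All 34 centromere and kinetochore genes passed the test in the same direction, with a median of 2.30, and 23 were highest in TA cells in both mice. Among them Ndc80, Nuf2 and Spc25, subunits of the complex that grips spindle microtubules, had log2 fold changes of 4.38 ± 0.38, 4.03 ± 0.38 and 3.94 ± 0.27 (SE). The Ndc80 levels were 28.1 and 13.5 CPM in TA cells and 5.05 and 1.87 in stem cells. Ska1, which tracks microtubule ends, and Cenpu, which helps to build the centromere, had log2 fold changes of 3.60 ± 0.29 and 3.37 ± 0.34 (SE). Cenpe and Cenpf, a kinetochore motor and its partner, stood at 133 and 61.0 CPM and at 184 and 118 CPM, against 20.7 and 7.48 and 35.3 and 9.35 in stem cells. The centromere list summed to 1829 and 1694 CPM in TA cells and 1402 and 1274 in goblet progenitors.

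Outside the lists, the rule named Esco2, which acetylates cohesin in S phase (54.9 and 34.3 CPM in TA cells and 4.48 and 0.623 in stem cells), and Pbk, a mitotic kinase (90.8 and 88.1 CPM and 17.9 and 15.6). It also named Lrr1, a substrate receptor that unloads the replicative helicase (25.8 and 24.0 CPM and 6.73 and 3.74), and Sapcd2 (32.5 and 23.1 CPM and 3.92 and 1.87). Each was highest in TA cells in both mice.

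**Figure D3:**
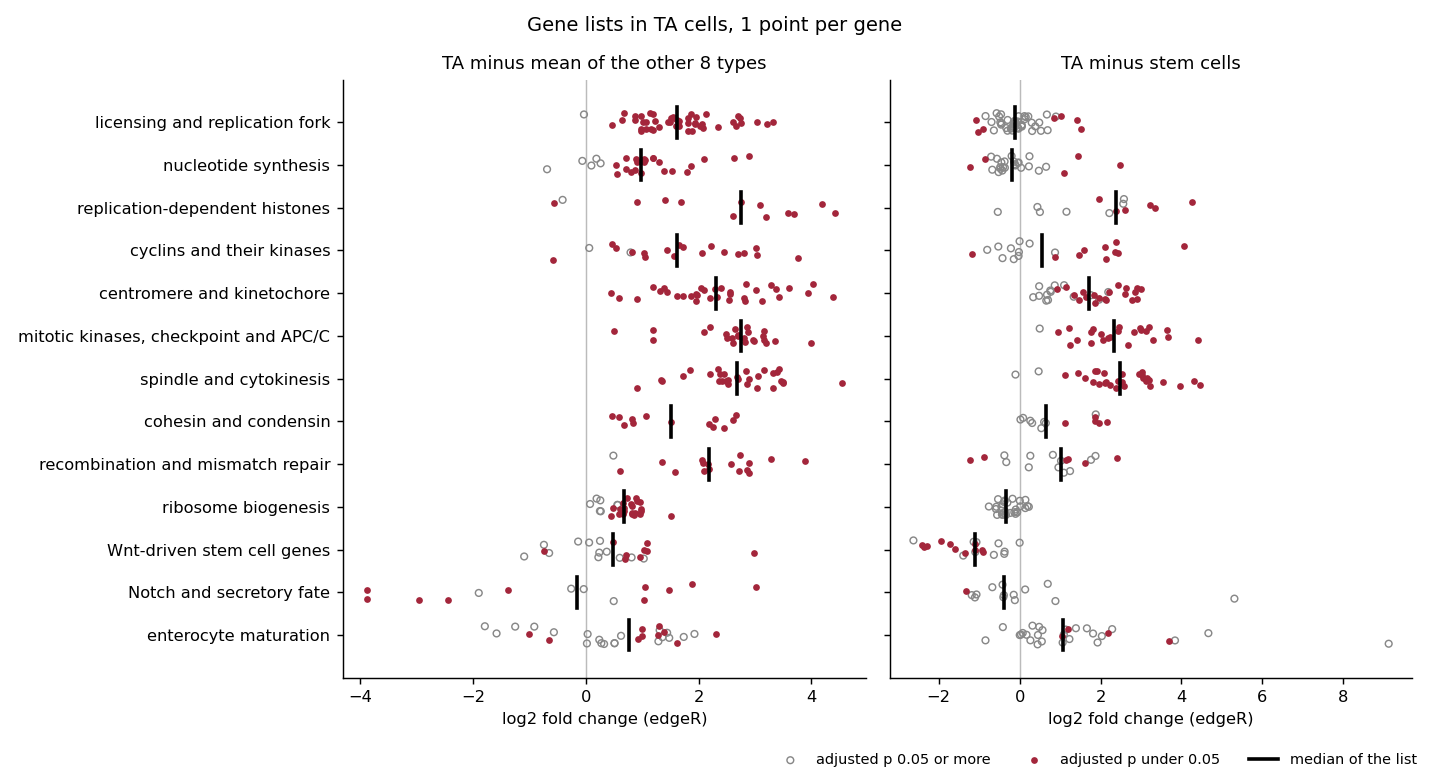
Log2 fold changes from edgeR (x axis) of the genes of 13 lists (rows), 1 point per gene, for TA cells minus the mean of the other 8 types (left) and minus stem cells (right). Filled points have an adjusted p under 0.05 and black bars are medians. The mitotic lists lie to the right in both panels, whereas the licensing list lies at a median of 1.61 on the left and of -0.11 on the right.

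Against stem cells, the neighbours below TA cells in the crypt, the mitotic genes were again higher while most replication genes were not. In this contrast 323 genes (2.93%) were higher and 209 (1.90%) lower in TA cells. Of the mitotic lists 23 of 24 kinase and checkpoint genes, 28 of 30 spindle genes and 20 of 34 centromere genes were higher and 0 lower, with medians of 2.33, 2.48 and 1.71. Without the mouse term these counts were 8, 16 and 7, beside 61 of all 11013 genes higher. The log2 differences of Anln, Aurkb, Nusap1 and Ccnf, the F-box cyclin, were 4.46 ± 0.47, 4.42 ± 0.38, 4.30 ± 0.64 and 4.06 ± 0.51 (SE). Those of Prc1, Esco2, Iqgap3, Plk1 and Cdca2 were 3.98 ± 0.61, 3.94 ± 0.45, 3.84 ± 0.67, 3.66 ± 0.35 and 3.65 ± 0.39 (SE). Of the 4 markers, Top2a, Birc5 and Cenpa passed, and Mki67 did not (2.21 ± 0.55 SE on the log2 scale, edgeR adjusted p = 0.064). Both classes were named from the same counts, so calls in this contrast, above all those of the markers, are a description and no independent test. TA cells also included a cluster with stem cell transcripts, described below, so the 2 classes are not split by stem cell genes alone.

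The licensing and replication fork genes told stem from TA cells less. Against the other 8 types 47 of 48 were higher and 0 lower in TA cells, with a median of 1.61. Against stem cells 4 were higher and 3 lower, with a median of -0.11, beside 0.01 over all genes. The summed level of the list was 2217 and 1694 CPM in TA cells, 2261 and 1605 in stem cells, 1909.7 and 1347 in goblet progenitors and 298 and 355 in enterocytes. Mcm5, a subunit of the replicative helicase, stood at 63.5 and 49.8 CPM in TA cells and 67.3 and 50.5 in stem cells. Its partner Mcm6 stood at 65.4 and 49.1 CPM in TA cells and 128 and 95.4 in stem cells, a log2 difference of -1.09 ± 0.22 (SE, edgeR adjusted p = 0.00183). Cdt1, which loads the helicase, stood at 32.8 and 28.9 CPM against 58.9 and 57.3 in stem cells, with -1.04 ± 0.22 (SE, edgeR adjusted p = 0.00249). Mcm2 stood at 38.5 and 28.2 CPM against 70.1 and 44.3, with -0.90 ± 0.26 (SE, edgeR adjusted p = 0.0461). These 3 made up the members lower in TA than in stem cells. In each the values of the types did not overlap, which adds no support for genes already picked by the test. The 4 higher members were Clspn, which relays the replication checkpoint (47.5 and 21.5 CPM against 17.9 and 5.61), Cdc45, a partner of the helicase (23.3 and 12.8 against 7.85 and 3.74), Mcm10 (35.5 and 29.0 against 15.7 and 16.8) and Rfc5, of the clamp loader (75.4 and 49.5 against 38.1 and 18.7). DESeq2 called 1 higher and 1 lower.

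Enzymes of nucleotide synthesis were higher in TA cells than in the other types in 22 of 27 genes (median 0.98). Against stem cells 3 were higher and 2 lower. Rrm2, the S phase subunit of ribonucleotide reductase, stood at 54.6 and 56.8 CPM in TA cells and 12.3 and 5.61 in stem cells, a log2 difference of 2.48 ± 0.34 (SE, edgeR adjusted p = 2.14e-05). Tk1, thymidine kinase, stood at 118 and 113 CPM against 40.4 and 38.0, with 1.44 ± 0.23 (SE, edgeR adjusted p = 9.01e-05). Dut, which keeps dUTP low, stood at 176 and 146 CPM against 206 and 176 in stem cells and did not pass.

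Histone genes that are used only while DNA is copied were measured in part, since their transcripts mostly lack the poly(A) tail that 3′ chemistry captures. Of the 22 listed, 13 passed the filter on low counts, which kept genes high in any 1 type, and of these 11 were higher and 1 lower in TA cells than in the other types. Of the 22, 6 were highest in TA cells in both mice. The list summed to 601 and 405 CPM in TA cells, 456 and 702 in enterocytes and 528 and 617 in enteroendocrine cells. By this sum TA cells were the highest type in mouse 1 but not in mouse 2. Hist1h2ap stood at 39.3 and 21.5 CPM in TA cells and 3.92 and 1.87 in stem cells. Hist1h1b, a linker histone, stood at 131 and 14.2 CPM in TA cells and 12.3 and 0.623 in stem cells, so that mouse 1 was the higher in both types. Among histone variants and HMG proteins 11 of 17 were higher and 1 lower. Hmgb2, a chromatin protein of dividing cells, stood at 1311 and 1493 CPM against 534 and 449 in stem cells, and H2afx, the variant that is phosphorylated at DNA breaks, at 237 and 224 CPM against 44.3 and 47.4.

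Cyclins of S, G2 and M phase were higher in TA than in stem cells, and the D and E cyclins did not pass. Against the other 8 types 17 of 20 cyclins and kinases were higher and 1 lower, and against stem cells 9 were higher and 1 lower. Ccna2, the cyclin of S and G2 phase, stood at 116 and 130.5 CPM in TA and 24.1 and 17.5 in stem cells, with 2.42 ± 0.30 (SE, edgeR adjusted p = 1.52e-05) on the log2 scale. Ccnb1, which activates Cdk1, stood at 111 and 82.0 CPM against 19.1 and 14.3, with 2.39 ± 0.31 (SE, edgeR adjusted p = 2.41e-05). Cdk1 itself stood at 207 and 109 CPM against 34.2 and 21.2 and 1.24 and 2.06 in enterocytes. Ccne1, the G1 to S cyclin, stood at 16.5 and 15.7 CPM in TA and 14.6 and 15.6 in stem cells, and Ccnd1, a G1 cyclin, at 199 and 131 CPM and 212 and 138. Cdk6, a partner of the D cyclins, was the member that was lower in TA than in stem cells, at 51.9 and 63.5 CPM against 117 and 120.3 (-1.18 ± 0.19 SE on the log2 scale, edgeR adjusted p = 9.45e-05).

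Of the 19 cell cycle transcription factors 14 were higher in TA cells than in the other types and 0 lower. Foxm1, which drives G2 genes, stood at 19.9 and 35.5 CPM in TA cells against 4.48 and 6.86 in stem cells, and Mybl2, the B-Myb factor, at 13.7 and 23.8 CPM against 3.36 and 8.10. E2f8, an E2F repressor, stood at 42.5 and 39.9 CPM against 12.3 and 14.3. Myc, a target of Wnt signalling in the crypt, went the other way against stem cells, with 21.7 and 35.3 CPM in TA cells and 46.0 and 105 in stem cells (-1.47 ± 0.23 SE on the log2 scale, edgeR adjusted p = 5.37e-05). It was still higher in TA cells than in the other 8 types, at 0.68 ± 0.19 (SE, edgeR adjusted p = 0.00558).

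Inhibitors of the cycle did not move as 1 group. Of 13 tested 4 were higher and 3 lower than in the mean of the other types, and 4 higher and 7 lower than in all other epithelial cells pooled. Over all genes the pooled contrast called 2671 of 11664 higher and 3103 lower, beside 2112 and 1497 of 11013 in the main one. Against stem cells 3 were higher, all from the Ink4 family that binds Cdk4 and Cdk6. Cdkn2b stood at 64.3 and 33.8 CPM in TA cells, 6.17 and 4.99 in stem cells and 202 and 183 in enterocytes (against stem cells 2.99 ± 0.32 SE on the log2 scale, edgeR adjusted p = 1.86e-07). Cdkn2c stood at 26.9 and 37.6 CPM against 7.85 and 7.48 in stem cells, and Cdkn2d at 32.3 and 27.3 CPM against 5.61 and 4.99. Cdkn1a, the p21 inhibitor, was lower in TA cells than in the other types, at 48.5 and 63.8 CPM against 184 and 187 in enterocytes.

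All 13 cohesin and condensin genes and all 13 genes of DNA methylation and heterochromatin were higher in TA cells than in the other types, with medians of 1.52 and 1.31. Against stem cells 5 and 1 of them were higher and 0 lower. Ezh2, the Polycomb methyltransferase, stood at 101 and 70.5 CPM against 76.2 and 43.0 in stem cells, and Dnmt1, which copies DNA methylation, at 61.1 and 44.4 CPM against 68.4 and 38.6, so that its values overlapped. Of 17 recombination and mismatch repair genes tested 16 were higher than in the other types (median 2.18), and against stem cells 4 were higher and 2 lower.

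Summed over all TA cells, Wnt-driven stem cell genes lay between stem cells and enterocytes. The list summed to 915 and 965 CPM in TA cells, 2416 and 1760 in stem cells and 85.5 and 187 in enterocytes. Goblet progenitors held 889 and 902 CPM, enteroendocrine cells 923 and 850 and tuft cells 1108 and 1079. The summed level was thus not particular to TA cells. Among the TA clusters described below it ran from 315 and 538 CPM in cluster 8 to 2442 and 2031 in cluster 13. By edgeR 0 of the 21 were higher in TA than in stem cells and 11 were lower, with a median of -1.11, and at an unadjusted p under 0.05 the counts were 0 and 17. Against enterocytes 19 were higher, beside 22.6% of all genes. Lgr5, the R-spondin receptor of crypt base stem cells, stood at 9.01 and 7.69 CPM in TA cells, 54.9 and 28.1 in stem cells and 0.103 and 0 in enterocytes (against stem cells -2.41 ± 0.29 SE on the log2 scale, edgeR adjusted p = 9.05e-07). Ascl2, the stem cell transcription factor, stood at 16.8 and 23.3 CPM against 60.0 and 59.8 in stem cells, Igfbp4 at 18.1 and 18.5 CPM against 62.8 and 66.7, and Gkn3 at 14.6 and 5.60 CPM against 64.5 and 31.2. Sox9 stood at 51.1 and 51.4 CPM against 138 and 99.7, and Axin2, the feedback inhibitor that reports Wnt signalling, at 46.4 and 57.2 CPM against 85.8 and 90.4. Olfm4 differed more between the mice than between the types, with 47.8 and 4.20 CPM in TA and 313 and 14.3 in stem cells, and it did not pass. Against the other 8 types 8 were higher and 1 lower, and 1 and 3 once the cluster with the highest stem cell levels, described below, was left out of the TA sums.

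The other genes that the rule named as lowest in TA against stem cells were Sfrp5, a secreted Wnt inhibitor (4.15 and 5.07 CPM against 17.4 and 29.3), and Phlda1 (9.01 and 15.6 against 39.8 and 65.5), which was lowest in TA cells of all 9 types in both mice. They also included Soat1, which esterifies cholesterol (13.2 and 15.4 against 84.1 and 26.2), Rgcc (12.9 and 20.1 against 64.5 and 53.0), Nr2e3 (6.52 and 6.65 against 33.1 and 14.3) and Ung, the uracil glycosylase of base excision repair (19.9 and 14.2 against 48.8 and 64.8). Foxa3, a forkhead factor, stood at 7.70 and 9.79 CPM against 38.1 and 28.7 in stem cells.

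Genes of Notch signalling and of the secretory fate, which Notch suppresses, went in both directions. Of 14 genes 5 were higher and 5 lower in TA cells than in the other types. The higher ones were the receptors Notch1 and Notch2, the target genes Hes1 and Nrarp, and the ligand Jag1. Hes1, the repressor that holds back Atoh1, stood at 63.2 and 97.6 CPM in TA and 53.0 and 65.4 in goblet progenitors, and Nrarp at 32.7 and 49.7 CPM, the highest of the 9 types in both mice. Among the lower ones, Atoh1, the master factor of secretory cells, stood at 1.42 and 1.05 CPM in TA cells and 90.3 and 75.0 in goblet progenitors (against the other types -3.89 ± 0.66 SE on the log2 scale, edgeR adjusted p = 2.46e-05). Spdef, which matures goblet cells, stood at 2.37 and 0.175 CPM against 83.9 and 90.6, and the Notch ligand Dll1 at 6.52 and 5.77 CPM against 70.2 and 73.2. The ligand Dll4 stood at 1.07 and 3.15 CPM in TA cells. Against stem cells only Sox4 passed, at 91.4 and 74.5 CPM in TA and 211 and 168 in stem cells. The 10 genes named as lowest against the other types were Rap1gapos (0.118 and 0 CPM), Tpsg1 (0.474 and 0.175), Gde1 (1.07 and 0.525), Hpd (1.07 and 0.175), Spink4 (33.9 and 10.1 CPM), Guca2a, which encodes guanylin (16.0 and 3.85), Tff3, a trefoil factor of mucus (83.2 and 114), Rep15 (0.948 and 0), Kdelr3 (0.474 and 0) and Pla2g10 (0.118 and 0). The 6 goblet markers, Tff3 among them, summed to 333 and 156 CPM in TA cells and 184477 and 164890 in goblet cells. They summed to 581 and 217 CPM in stem cells and 324 and 540 in enterocytes. A low sum of these markers was thus not particular to TA cells.

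Ribosome biogenesis genes were higher in TA cells than in the other types in 23 of 30 genes (median 0.67). Against stem cells 0 of 30 were higher and 0 lower by edgeR, with a median of -0.34, and at an unadjusted p under 0.05 the counts were 0 and 6. DESeq2 gave 0 and 0. Ncl, the nucleolar protein nucleolin, stood at 791 and 531 CPM in TA and 951 and 661 in stem cells. Of 13 identity factors of the intestine 5 were higher and 3 lower than in the other types, and 1 and 3 without the mouse term. Over all 11013 genes the fit without that term called 804 higher and 565 lower. By CPM, Hnf4a and Klf5, factors of the absorptive epithelium and of crypt proliferation, were highest in TA cells in both mice, at 219 and 306 CPM and 365 and 293 CPM. Klf4, which marks differentiated cells, stood at 14.7 and 8.57 CPM against 224 and 185 in goblet progenitors.

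Genes of enterocyte maturation were measured in TA cells at a small part of their enterocyte level. The 30 genes summed to 6338 and 2847 CPM in TA cells, 2606 and 1752 in stem cells and 87017 and 46262 in enterocytes. Goblet progenitors held 5485 and 2516 CPM, goblet cells 4267 and 3381 and enteroendocrine cells 4918 and 2832. The summed level was thus not particular to TA cells. Against enterocytes 29 of 30 were lower, beside 29.1% of all genes, and 1 was higher, with a median of -4.50. Against stem cells 4 were higher and 0 lower. Krt20, a keratin of differentiated cells, stood at 30.8 and 19.4 CPM in TA cells, 1.68 and 1.87 in stem cells and 501 and 480.3 in enterocytes (against stem cells 3.68 ± 0.43 SE on the log2 scale, edgeR adjusted p = 8.2e-07). Dgat1 and Mttp, which make triglyceride and load it on lipoproteins, stood at 212 and 123 CPM and 115 and 64.4 CPM against 79.6 and 65.5 and 40.9 and 29.3 in stem cells. Alpi, the brush border phosphatase, stood at 20.7 and 13.99 CPM against 5.61 and 1.25. Fabp1, the fatty acid binding protein, stood at 507 and 158 CPM in TA cells and 19464 and 8639.9 in enterocytes, and its difference from stem cells (45.4 and 1.25 CPM) did not pass. Against the mean of the other 8 types 8 of 30 were higher and 2 lower, but with all other epithelial cells pooled, 931 and 382 of them enterocytes, 1 was higher and 27 were lower. Over all genes the pooled contrast called 2671 of 11664 higher and 3103 lower.

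Over all genes, 2486 (22.6%) were higher and 3208 (29.1%) lower in TA cells than in enterocytes. The genes named as highest included Kif2c, a microtubule depolymerase (37.0 and 24.1 CPM against 0.0516 and 0.187) and Neil3, a DNA glycosylase (34.5 and 30.4 against 0.0516 and 0.748). Those named as lowest included Apoa1, an apolipoprotein (54.9 and 1.57 CPM against 6342 and 4137), Lct, which encodes lactase (1.42 and 0 against 239 and 214), and Slc2a2, a glucose transporter of the basal membrane (1.07 and 0.175 against 181 and 36.8). Others were Pdzk1, a brush border scaffold (0.355 and 0.175 against 91.1 and 60.2), Leap2, a liver and gut peptide (1.30 and 1.05 against 269 and 142), Cyp2b10 (0.948 and 0.175 against 152 and 64.1), Dnase1 (1.30 and 0 against 178 and 86.0) and Fam151a (0 and 0.175 against 43.6 and 72.0). The values of the types did not overlap in any of these genes. They too were picked for large folds, so this adds no support.

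Of 119 candidate targets of miR-375, which the study drew up in human cells, 116 matched a mouse symbol in the matrices and 96 passed the filter. Of these 20 were higher and 11 lower in TA cells than in the other types, with a median of 0.09, and 4 were higher and 2 lower than in stem cells. Set against 19.2% and 13.6% of all genes, the first shares were near the background. Zfp36l2, an RNA-binding protein that promotes decay of AU-rich transcripts, stood at 143 and 148 CPM, 119 and 104 CPM, 170.3 and 163 CPM and 304 and 199 CPM in the 4 clusters of TA cells described next, numbered 5, 8, 10 and 13. Of 12 immediate early genes, which respond to dissociation as well as to growth signals, 2 were higher and 4 lower in TA cells than in the other types by edgeR, and 1 and 9 by DESeq2. Fos stood at 45.7 and 61.9 CPM in TA cells and 200.2 and 90.7 in enterocytes.

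The authors' clustering divided TA cells into 4 clusters, which kept almost the same proportions in the 2 mice although the mice differed in their share of TA cells. Cluster 5 held 117 and 127 cells (36.6% and 39.3% of TA cells), cluster 8 82 and 74 cells (25.6% and 22.9% of TA cells), cluster 10 68 and 69 cells (21.2% and 21.4% of TA cells) and cluster 13 53 and 53 cells (16.6% and 16.4% of TA cells). For each cluster the exact 95% intervals of the 2 mice overlapped. The clusters were made from these counts, so their levels are given as a description with no test, and each is called by its number.

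Cluster 10 had the highest levels of replication genes. The licensing and replication list summed to 4010.3 and 3284 CPM in cluster 10, against 1795 and 1312 in cluster 5, 1027 and 965 in cluster 8 and 2753 and 1506 in cluster 13. In cells thinned to 5000 UMIs the median was 20 and 16 UMIs of the list per cell in cluster 10, against 8 and 6, 5 and 5 and 12 and 6 in clusters 5, 8 and 13 and 9 and 7 in stem cells. Ccne1 stood at 62.0 and 53.2 CPM in cluster 10 and at 6.29 and 5.48, 0.56 and 2.54 and 13.4 and 9.52 in the others. Mcm6 stood at 160.4 and 136 CPM in cluster 10 and 16.2 and 22.05 in cluster 8, and Rrm2 at 136 and 142 CPM and 17.4 and 13.6. E2f1, the factor that opens S phase, stood at 35.0 and 27.8 CPM in cluster 10 and 3.15 and 4.64 in cluster 5. At the same time cluster 10 was the lowest of the 4 in Cenpa, at 66.0 and 76.9 CPM, and in Ccnb1, at 31.7 and 21.3 CPM.

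Cluster 5 had the most mitotic UMIs per cell. The 88 genes of the 3 mitotic lists gave a median of 57 and 41 UMIs per thinned cell, against 32 and 24.5 in cluster 8, 30 and 26 in cluster 10, 51 and 36 in cluster 13 and 11 and 10 in stem cells. By summed level the spindle list was close in clusters 5 and 13, at 4393 and 3297 CPM and 4515 and 3470.2 CPM, while the mitotic kinase list stood at 4069.8 and 3542 CPM in cluster 5 and 2922 and 2536 in cluster 13. Ube2c stood at 894 and 616 CPM in cluster 5 and 205 and 151 in cluster 10, and Top2a at 548 and 389 CPM, the highest of the 4 clusters in both mice. The H2afx levels were 324 and 319 CPM in cluster 5 and 116 and 91.6 in cluster 8.

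Cluster 8 had the lowest level of the licensing and replication list and the highest enterocyte levels among TA clusters. Its replication-dependent histones were not low, at 535 and 730.1 CPM, against 687 and 372 in cluster 5, 534 and 274 in cluster 10 and 549 and 252 in cluster 13. Top2a stood at 115 and 79.7 CPM and was found in 20.7% and 23.0% of thinned cells, while Cenpa, at 253 and 351 CPM, was found in 78.0% and 74.3%. Cdc20 stood at 211 and 146 CPM and Ccnb2, the second B cyclin, at 189 and 181 CPM, against 44.9 and 31.1 and 48.2 and 36.0 in cluster 10. The enterocyte maturation list summed to 10152 and 4161 CPM, against 6596 and 2994 in cluster 5, 5008 and 2467 in cluster 10 and 2873 and 1332 in cluster 13. Krt20 stood at 77.3 and 60.2 CPM in cluster 8 and 5.47 and 1.06 in cluster 13, and Cdkn2b at 129.9 and 68.7 CPM and 0 and 0. Cluster 8 was also the shallowest in both mice, with a median of 14599.5 and 15259.5 UMIs, against 23341 and 18551 in cluster 5.

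Cluster 13 held cells that had cycling and stem cell transcripts together. The Wnt-driven stem cell list gave a median of 12 and 10 UMIs per thinned cell, against 11 and 9 in stem cells and 2 and 3 in cluster 5, and the mitotic lists gave 51 and 36, against 11 and 10 in stem cells. Lgr5 stood at 43.2 and 41.2 CPM in cluster 13 and 54.9 and 28.1 in stem cells, and in clusters 5, 8 and 10 at 0.286 and 0.422, 0.56 and 0 and 1.98 and 3.27. Ascl2 stood at 74.2 and 81.4 CPM in cluster 13, Slc12a2, a chloride cotransporter of the crypt base, at 631 and 371 CPM, and Sox4 at 315 and 214 CPM, against 60.0 and 59.8, 545 and 308 and 211 and 168 in stem cells. Mki67 was found in 83.0% and 58.5% of thinned cluster 13 cells and in 25% and 12.0% of thinned stem cells. With cluster 13 left out of the TA sums, an alternative added after the data were seen, 907 genes passed against stem cells in place of 532, 473 higher and 434 lower.

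**Figure D4:**
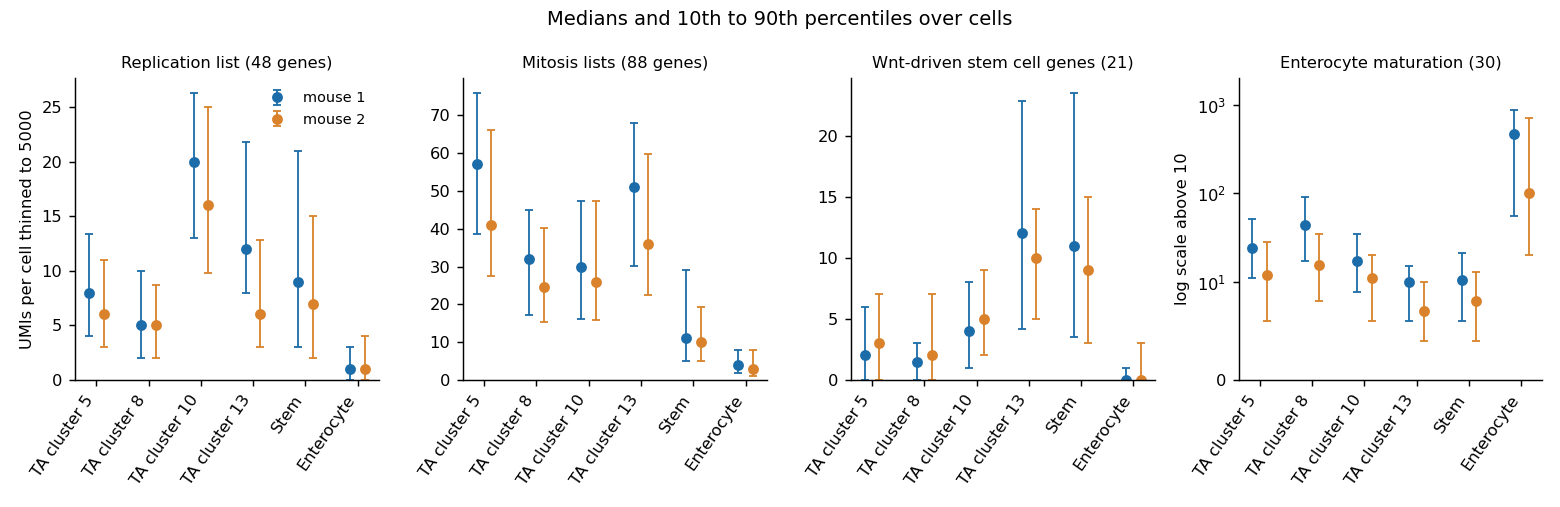
UMIs per cell thinned to 5000 (y axis; log scale above 10 in the right panel) of 4 gene lists in the 4 TA clusters, stem cells and enterocytes (x axis), with points for the median and bars from the 10th to the 90th percentile over cells, by mouse. Replication is highest in cluster 10, mitosis in cluster 5, stem cell genes in cluster 13 and, among TA clusters, enterocyte genes in cluster 8.

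Markers of other cell types were present in the TA sums, and some of their UMIs were concentrated in a few cells. The 6 goblet markers summed to 333 and 156 CPM, with 46.1 and 76.1% of their UMIs in 5 cells, against 184477 and 164890.3 CPM in goblet cells. The 6 enteroendocrine markers summed to 362 and 46.5 CPM, with 62.5 and 42.5% of their UMIs in 1 cell. The 6 enterocyte markers summed to 986 and 255 CPM and were found in 258 and 150 TA cells. Paneth markers summed to 24.9 and 23.1 CPM (0 and 5 of 6 at 0), tuft markers to 4.50 and 17.5 CPM (2 and 1 of 6 at 0) and markers of intraepithelial lymphocytes to 23.0 and 4.72 CPM (0 and 3 of 8 at 0). The 6 stem cell markers summed to 197 and 163 CPM in TA cells, against 709.7 and 342 in stem cells, and the 4 secretory progenitor markers to 12.4 and 7.87 CPM. Goblet markers at 0 in mouse 2 numbered 3 of 6, and 1 of the 6 enteroendocrine markers was at 0 in mouse 1. The part of free RNA, of doublets or of cells of another class in these values was not tested.

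The TA sums of the 2 mice were close for most genes. Of 2922 genes at 50 CPM or more in either mouse, 254 (8.69%) differed at least 2-fold, 152 higher in mouse 1 and 102 higher in mouse 2, with 1 library per mouse and hence no test. Of the 254 genes, 168 showed the same 2-fold difference in 5 or more of the other 8 types, and 79 showed it in all 8. Cell cycle lists held few genes at 50 CPM or more. At that level 0 of 18 licensing genes, 0 of 16 mitotic kinase genes and 0 of 10 cyclins and their kinases differed 2-fold. Lists this short cannot tell 0 from the 8.69% of all genes. Of 17 spindle genes 5 were higher in mouse 1 and 1 in mouse 2. Higher in mouse 1 were also 2 of 4 replication-dependent histones, 2 of 8 cohesin and condensin genes, 2 of 12 centromere genes and 2 of 15 nucleotide synthesis genes, with 0 higher in mouse 2.

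The largest ratio in favour of mouse 1 was that of Agr2, a disulfide isomerase of mucus cells. It had 815 UMIs in 29 TA cells of mouse 1 and 0 in mouse 2, at least 184-fold higher when 3 UMIs are taken as the floor of mouse 2. In goblet cells it stood at 31527 and 26859.6 CPM and in stem cells at 50.5 and 0. The next 4 were Apoa1 (54.9 and 1.57 CPM), Reg3b, an antibacterial lectin (1040.0 and 30.4), Gip, an incretin hormone (345 and 17.7, with 2 TA cells of mouse 1 and 1 of mouse 2 holding its UMIs), and Fabp6, a bile acid binding protein (56.0 and 4.72). Of 16 enterocyte maturation genes at 50 CPM or more 8 were at least 2-fold higher in mouse 1 and 0 in mouse 2.

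Those highest in mouse 2 differed in the other types too. Rps18, a ribosomal protein of the small subunit, stood at 100.1 and 6929 CPM in TA cells, 154 and 8323 in stem cells and 48.8 and 4586 in enterocytes. The others were 1700097N02Rik (1.66 and 86.9 CPM), Wdr89 (26.8 and 565), H2-Eb1, a chain of MHC class II (6.40 and 88.3), and Rps28, also a ribosomal protein (207 and 2824). All 5 were at least 2-fold higher in mouse 2 in all 8 other types as well. Ribosomal protein genes have near-identical pseudogene copies, so these 2 values are uncertain where reads could be split among copies. Other ribosomal protein genes, such as Rps26, Rps29 and Rpl31, were also at least 2-fold higher in mouse 2 and share this limit. Whether the difference lies between the animals or between the libraries cannot be told apart.

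**Figure D5:**
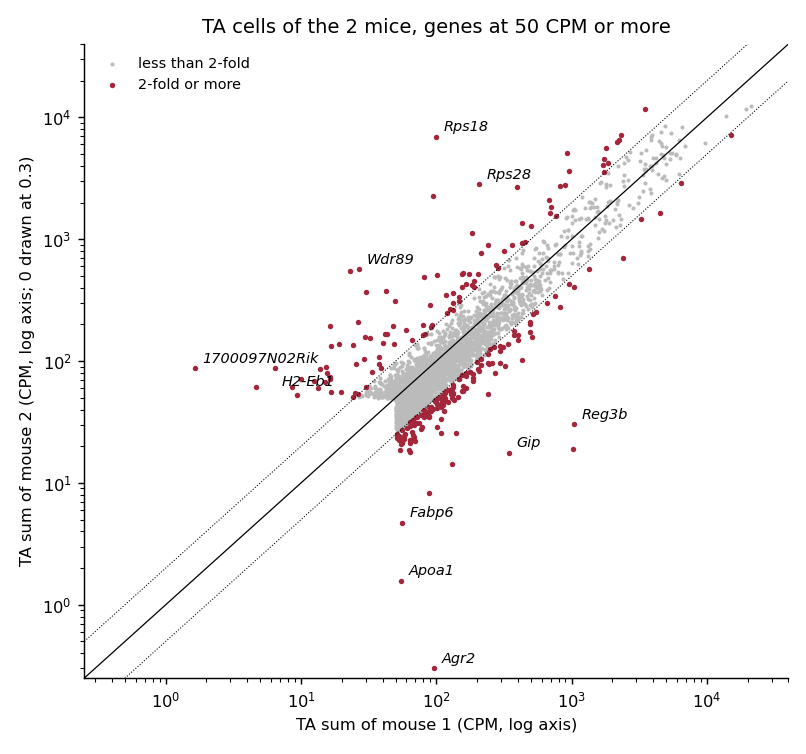
Level of each gene in the TA sum of mouse 1 (x axis) and of mouse 2 (y axis), in CPM on log axes, for the 2922 genes at 50 CPM or more in either mouse; the solid line is equality and the dotted lines are 2-fold. The 254 genes at 2-fold or more are filled in red, with Rps18 farthest above the line and Agr2, at 0 in mouse 2, farthest below.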

How the data were processed

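Single-cell RNA-seq of jejunal crypts from 2 miR-375 knockout mice gave 1 library each. Per the study's methods, the authors aligned reads to mm10 and made the deposited UMI counts with Cell Ranger 3.0.1, removed cells by gene number and mitochondrial share, called doublets (346 and 38 barcodes) with scDblFinder, and integrated, clustered and named the cells in Seurat. The submitters' processing notes give Seurat 3.2.1, and the study's methods a later version. The authors also deposited the percent of mitochondrial UMIs and the doublet score of each cell. SoupX is named for free RNA by the methods, but not for which file, and such a correction would lower the levels of other types' genes in TA cells. Cell types were taken from the deposited annotation, and all 3275 annotated cells matched the deposited count table of the whole study in UMI total and gene number. The matrices of the single libraries, which gave the counts used here, held up to 29 and 262 UMIs more per cell than the annotation. The 2937 cell columns of other samples and the sctransform-corrected counts were not used.

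UMIs were summed per mouse and type over the 9 epithelial types (intraepithelial lymphocytes left out), and 18 sums were fitted in edgeR 4.0.16 (R 4.3.3; filterByExpr, TMM, robust quasi-likelihood fit) with terms for type and mouse. Sums of the same mouse are paired because they come from the same animal and library, so the mouse term is the replicate block. Levels and rankings of types used CPM without the TMM factors, which were 1.44 and 1.33 in TA cells and 1.01 and 1.08 in enterocytes. A rank taken after dividing by these factors can differ. Tests were two-sided, with a threshold of 0.05 after Benjamini-Hochberg adjustment over 11013 genes. The scripts were tested on simulated data. DESeq2 1.42.0, no filter, no block, cells thinned to 5000 UMIs, a stricter cell filter (at most 10% mitochondrial UMIs, at least 1500 genes) and other sets of types were alternatives. Promoters came from RefSeq (GRCm38.p6). Of the 11013 genes tested 8829 matched one. Intervals are exact and at 95%. With 1 library per animal, the spread between mice includes that between libraries.

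Named genes were the 20 highest and 10 lowest by fold against the other types, and the 10 highest and lowest against stem cells and enterocytes, that passed the test, kept their sign in each mouse, reached 20 CPM and had no predicted-gene (Gm) or pseudogene (-ps) symbol, together with members of the gene lists. Between mice the 5 largest ratios each way were named. The members and the lists were chosen with earlier results of these data known.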

Additional observations from a re-analysis of the deposited data

Results flagged for a closer look

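The barcodes that the authors called doublets, which enter no comparison above, held UMIs of Mki67, Top2a, Cenpa and Birc5. The 346 such barcodes of mouse 1 held 2378 UMIs of the 4 genes among 8387823 in all, and the 38 of mouse 2 held 176 among 1137903. Both values lie above the 3 UMIs that a count of 0 allows, a floor that most expressed genes would pass at these totals, so passing it says little. No control group was available to set the values against. Whether TA cells were part of these barcodes was not tested.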

How the results depend on the processing

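No named gene changed sign under any alternative run. Against the mean of the other types, 3609 genes passed as reported, 1369 passed with no replicate block and 5774 with all other epithelial cells pooled, where 46.3% of the calls were higher in TA cells in place of 58.5%. That share was 76.9% with thinned cells, 73.7% with no filter and 70.1% with the stricter cell filter, and the median of all genes moved from 0.05 to 0.26, 0.19 and 0.15. Against stem cells, 532 genes passed as reported, 834 with no filter, 70 with no replicate block (61 higher and 9 lower) and 907 without cluster 13, which was chosen after the data were seen. The share of calls higher in TA cells was 60.7% as reported, 74.6% with no filter, 87.1% with no replicate block and 71.6% with the stricter filter. Against enterocytes, 5694 passed as reported and 2843 with no replicate block. Without the block that pairs types by mouse, 5 of 63 genes named against the other types, 39 of 59 named against stem cells and 3 of 22 named against enterocytes did not pass, and by DESeq2 1, 14 and 2 did not. The cause was not tested. Unthinned, Mki67, Top2a, Cenpa and Birc5 were found in 92.2%, 85.9%, 86.6% and 95.7% of TA cells as the mean of the mice. Leaving out 1 mouse at a time, the thinned shares ranged from 59.1% to 70.6%, 65.6% to 68.8%, 62.5% to 65.9% and 77.7% to 81.2%, and the share of TA cells from 15.4% to 27.1%. With 1 mouse no test is left, so the counts of genes have no such value. Without mouse 1 the fold of 38 of 63 genes named against the other types, 13 of 59 against stem cells and 19 of 22 against enterocytes moved by at least 1 SD of the 2 single-mouse values, and without mouse 2 that of 31, 13 and 15. The single-mouse folds were differences of log2 CPM with a small prior count, whereas the reported folds came from the edgeR fit. These moves therefore mix the change of method with the mouse left out, and the 2 parts were not separated. The naming rule itself required the same sign in each mouse, so a kept sign adds nothing for the genes it picked. Of the genes that differed 2-fold between mice there were 434 at a minimum of 20 CPM and 168 at 100 CPM, in place of 254. Other list counts that moved were those of the recombination genes against the other types (16 higher as reported, 5 with thinned cells) and the enterocyte genes against stem cells (4 higher as reported, 15 with no filter), and the licensing list against stem cells went from 4 higher and 3 lower to 1 higher and 3 lower with thinned cells. Depth limits the rare types, of which the smallest sum held 19 cells.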
